A study of Mus musculus with 12 samples.

Results

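Wobbler is a recessive mouse mutation of Vps54, a gene of proximal chromosome 11 whose product helps to tether returning endosomal vesicles at the Golgi. Genes that lie close to a mutation are inherited together with it when it is bred onto another strain, so the neighbours of Vps54 travel with the mutated copy in most crosses. The genes described here are 10 neighbours of Vps54 that were chosen by name. Of the 10, 6 had a probe on the array: Aftph, Ugp2, Mdh1, Xpo1 and Commd1 with 1 probe each and Ehbp1 with 3, or 8 of 20355 probes. The array named 9930 genes in all. The other 4, Peli1, Actr2, Spred2 and Rab1a, had no probe under these symbols or their gene identifiers and have no value here, and neither has Vps54. All 6 genes with a probe passed the filter on missing values and are among the 14729 features tested.

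Testis RNA from males was compared on 12 two-colour arrays. The genotypes were wildtype, Wobbler and Wobbler modifier, all on a Castaneus background, and the series' design text writes the latter 2 as wr/wr and wr/mod. Each channel held RNA pooled from 3 animals. Each pair of genotypes was hybridised on 4 arrays, and on replicates 3 and 4 the dyes were exchanged. The labels do not say what the modifier is, how old the animals were, or whether the arrays of a comparison came from separate pools, so p-values measure only how arrays differed among themselves, possibly for technical reasons. The values are log2 ratios of the first-named genotype over the second, and the ratios on arrays with exchanged dyes were multiplied by -1. That a positive value means more RNA in the first-named genotype is likely, from the titles of the arrays and the common dye order, but not stated. A ratio within an array gives no level, so neither the tissue label nor the abundance of these genes could be checked, and in whole testis fewer cells of a type and less RNA per cell cannot be told apart.

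The proteins of these neighbours have unrelated tasks. Aftph (aftiphilin) binds clathrin and the adaptor AP-1 at the trans-Golgi network, Ehbp1 links endocytic membranes to actin, and Commd1 belongs to a complex that returns receptors from endosomes to the cell surface. Ugp2 makes UDP-glucose, the sugar donor for glycogen and for sugar chains of proteins, and Mdh1 is the malate dehydrogenase of the cytosol, a part of the malate-aspartate shuttle. Xpo1 is the main exporter of proteins from the nucleus. Along the chromosome Ugp2 and Mdh1 are the nearest protein-coding genes on one side of Vps54, followed by Ehbp1, Commd1 and Xpo1, and Aftph lies on the other side.

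The starts of 3 genes are shown, picked by their values. Xpo1 and Aftph had the smallest p-values of the group, and Mdh1 had the lowest ratio in modifier over wildtype. None of the 3 passed the test described below, and a link between these sequences and the ratios was not tested. Each sequence is the 250 bases before the annotated start, 5′ to 3′ on the gene's strand, from RefSeq (GRCm38.p6), in which all 10 genes had such a window, at chr11:21571935-21572184 on the minus strand for Mdh1, chr11:23255791-23256040 on the plus strand for Xpo1 and chr11:20741557-20741806 on the minus strand for Aftph. Capitals mark the letters CCAAT, searched on both strands.
Mdh1: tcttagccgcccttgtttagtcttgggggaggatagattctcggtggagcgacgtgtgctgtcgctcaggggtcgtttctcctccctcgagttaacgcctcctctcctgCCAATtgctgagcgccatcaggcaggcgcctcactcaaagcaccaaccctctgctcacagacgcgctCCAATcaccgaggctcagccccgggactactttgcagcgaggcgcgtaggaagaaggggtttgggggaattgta
Xpo1: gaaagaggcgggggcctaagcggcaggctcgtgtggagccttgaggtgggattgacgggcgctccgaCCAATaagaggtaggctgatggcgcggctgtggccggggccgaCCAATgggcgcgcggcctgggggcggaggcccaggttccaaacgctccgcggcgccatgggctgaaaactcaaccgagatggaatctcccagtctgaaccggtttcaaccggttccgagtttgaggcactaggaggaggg
Aftph: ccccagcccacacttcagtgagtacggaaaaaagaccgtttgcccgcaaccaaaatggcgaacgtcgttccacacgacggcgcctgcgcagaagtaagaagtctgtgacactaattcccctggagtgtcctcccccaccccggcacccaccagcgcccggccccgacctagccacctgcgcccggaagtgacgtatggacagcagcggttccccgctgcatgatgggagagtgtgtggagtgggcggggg
The Mdh1 and Xpo1 windows each held 2 matches and the Aftph window 0, and 33.8% of 32851 such windows hold at least 1. GGGCGG, searched like the other motifs on both strands, was found in all 3 windows and in 32.7% of all windows. Among the other described genes it was also found for Ugp2, Peli1, Actr2, Spred2, Rab1a and Ehbp1, but not for Commd1. Of these, Ugp2 and Actr2 also had a CCAAT match. TATAAA was found in none of the 3 and in 12.4% of all windows, and TGACG in Xpo1 and Aftph and in 17.8% of all windows. A match is a description of letters only. The Mdh1 window shares 154 bases with that of Wdpcp, a gene of ciliogenesis that is transcribed in the opposite direction and was also on the array.

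None of the 6 genes passed the test in any comparison (limma, Benjamini-Hochberg adjusted p under 0.05 over all features). For Wobbler over wildtype 0 of 6 passed, where 0.306% of all features did, and 1 of 6 had an unadjusted p under 0.05, against 15.7% of features. For modifier over wildtype 0 of 6 passed beside 0.733% of features, and 0 of 6 had an unadjusted p under 0.05 beside 7.33%. For modifier over Wobbler 0 of 6 passed beside 0.414%, and 1 of 6 had an unadjusted p under 0.05 beside 11.5%. The smallest adjusted p of the 18 tests was 0.309. Of the 18 fitted ratios, 17 lay within 0.4 of 0 on the log2 scale. A p that misses the threshold does not show that a gene was equal, so the intervals below say what the arrays leave possible.

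**Figure D1:**
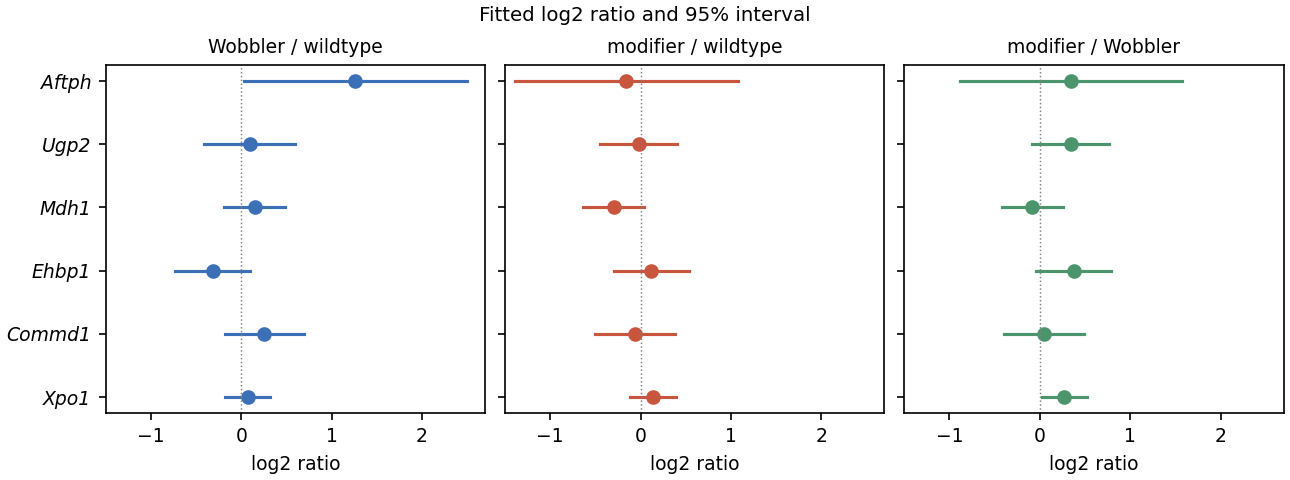
Fitted log2 ratio of each gene (dots) with its 95% interval from the limma fit over 12 arrays (lines), in the 3 comparisons; the vertical dotted line is a ratio of 1. The intervals of Xpo1 are the narrowest and those of Aftph the widest, and only Aftph in Wobbler over wildtype and Xpo1 in modifier over Wobbler have an unadjusted interval that leaves out 0.

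The median ratio of the 6 genes was 0.12 in Wobbler over wildtype, -0.04 for the modifier against wildtype and 0.31 for the modifier against Wobbler. Over all features the medians were -0.007, 0.01 and 0.08. Positive ratios were found for 5, 2 and 5 of the 6 genes, beside 49.2%, 52.5% and 61.6% of all features. The sign was the same on every array measured for 1 gene in Wobbler over wildtype, for 0 in modifier over wildtype, beside 19.2% of features, and for 2 in modifier over Wobbler. The comparisons share genotypes, and possibly pools, so their values are given side by side and are not independent.

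Among the genes of membrane traffic, Aftph had the largest ratio and it rested on 1 array. In Wobbler over wildtype its log2 ratios were 0.51, 4.57, 0.13 and -0.15 on replicates 1 to 4. Replicate 2 stood far above the other 3, which lay between -0.15 and 0.51. The fitted ratio was 1.26 ± 0.55 (SE, n = 4), with a 95% interval from 0.035 to 2.49 and an adjusted p of 0.309 in limma. Without replicate 2 the ratio was 0.21. That array was also the widest of the series: 11.9% of its features had a log2 ratio above 2 and 3.14% a ratio above 4, while on the other 11 arrays at most 1.63% lay above 2. The part of that array's spread in the Aftph value was not tested beyond leaving the array out.

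The other comparisons of Aftph showed small ratios. Its 4 arrays of modifier over wildtype gave 0.003, -0.12, -0.31 and -0.20, and the fitted ratio was -0.16 ± 0.55 (SE, n = 4). Those of modifier over Wobbler gave 0.30, 0.63, 0.07 and 0.38, all above 0. In this comparison 17.8% of features had the same sign on every array measured. The fitted ratio there was 0.35 ± 0.55 (SE, n = 4; limma adjusted p 0.880). The SE is that of 1 spread per feature over all 12 arrays, so the high value on 1 array widened it in every comparison. The residual SD of Aftph, 1.23, was larger than that of 90.8% of features.

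The 3 probes of Ehbp1 did not give the same values. For modifier over Wobbler, probe 13352 was at -0.28, 3.57, 0.98 and 0.04 on replicates 1 to 4. Probe 8587 was at 0.10, 0.11, -0.31 and 0.31 on the same arrays, and the log2 ratios of probe 8862 lay between -0.29 and 0.31. Only probe 13352 was high on replicate 2. Its own fitted ratio was 1.08 ± 0.53 (SE, n = 4), against 0.06 ± 0.16 (SE, n = 4) for probe 8587 and -0.0035 ± 0.13 (SE, n = 4) for probe 8862. All 3 carry the same transcript accession in the platform annotation, so the annotation does not tell them apart.

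**Figure D2:**
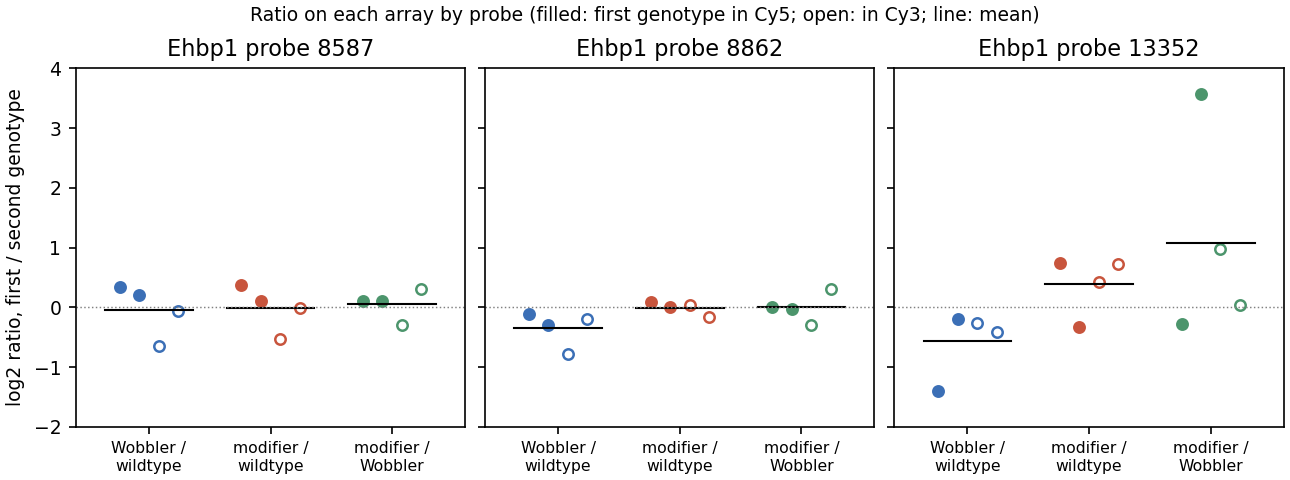
Log2 ratio of each Ehbp1 probe on each array; filled dots have the first-named genotype in Cy5, open dots in Cy3, and the line is the mean of the arrays. Probe 13352 reaches 3.57 on replicate 2 of modifier over Wobbler and -1.40 on replicate 1 of Wobbler over wildtype, while the other probes stay between -0.78 and 0.37.

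Averaged over its probes, Ehbp1 was below 0 on all 4 arrays of Wobbler over wildtype, at -0.39, -0.10, -0.56 and -0.22. In that comparison 17.6% of features had the same sign on every array measured. The fitted ratio was -0.32 ± 0.19 (SE, n = 4), with a 95% interval from -0.73 to 0.10 and a limma adjusted p of 0.417. Singly, the probes gave -0.04, -0.35 and -0.57, and the lowest unadjusted p, that of probe 8862, was 0.0274 (limma adjusted p 0.254 over 18038 probes). Of the 8 probes of these genes 0 passed in any comparison when fitted singly, where 0.482%, 0.915% and 0.61% of all probes did in Wobbler over wildtype, modifier over wildtype and modifier over Wobbler. The mean of the probes in modifier over wildtype was 0.40, -0.08, -0.03 and 0.18, or 0.12 ± 0.19 (SE, n = 4) in the fit. For modifier over Wobbler it was -0.06, 1.22, 0.13 and 0.22, or 0.38 ± 0.19 (SE, n = 4; limma adjusted p 0.475). Without replicate 2 of that comparison the ratio was 0.10.

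Commd1 had 1 high array in Wobbler over wildtype. Its log2 ratios there were 1.25, 0.03, 0.10 and -0.36, and the fitted ratio of 0.26 ± 0.20 (SE, n = 4) became -0.02 without replicate 1. Modifier over wildtype gave 0.09, 0.09, -0.36 and -0.06, and modifier over Wobbler 0.11, 0.50, -0.52 and 0.11. Values of both signs occurred in every comparison. The fitted ratios were -0.06 ± 0.20 (SE, n = 4) and 0.05 ± 0.20 (SE, n = 4), and the second of these was below 0 with arrays centred on their medians (-0.0065).

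**Figure D3:**
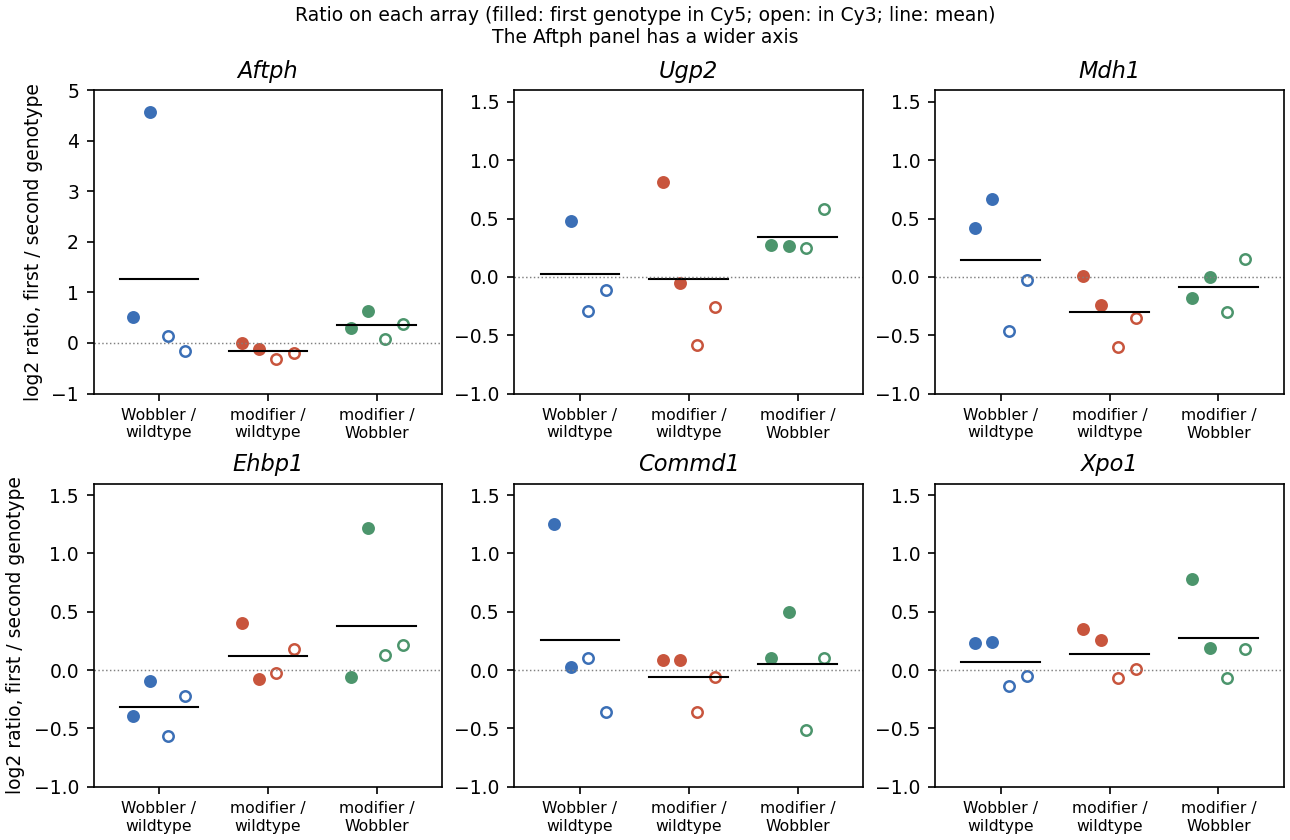
Log2 ratio on each array of the 6 genes, probes averaged; filled dots have the first-named genotype in Cy5, open dots in Cy3, the line is the mean of the arrays, and the Aftph panel has a wider axis. Aftph at 4.57 and Commd1 at 1.25 in Wobbler over wildtype and Ehbp1 at 1.22 in modifier over Wobbler are single high arrays, and Xpo1 stays between -0.14 and 0.78 on all 12.

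For the enzymes, Ugp2 was missing on replicate 1 of Wobbler over wildtype, and the other arrays gave 0.47, -0.29 and -0.11. The fitted ratio was 0.09 ± 0.22 (SE, n = 3). The arrays of modifier over wildtype ranged widely, at 0.81, -0.05, -0.59 and -0.26, around a fitted -0.02 ± 0.19 (SE, n = 4). Those of modifier over Wobbler spanned a smaller range, at 0.27, 0.27, 0.25 and 0.58, all above 0, but replicate 4 stood apart from the others. The fitted ratio was 0.34 ± 0.19 (SE, n = 4), with a 95% interval from -0.09 to 0.77 and a limma adjusted p of 0.538. That interval reaches from 0.942-fold to 1.70-fold. Leaving out 1 array gave fitted log2 ratios from 0.17 to 0.45 in this comparison.

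Mdh1 had log2 ratios of 0.42, 0.66, -0.47 and -0.02 in Wobbler over wildtype, positive with one dye orientation and negative with the other. The fitted ratio was 0.15 ± 0.15 (SE, n = 4). Against wildtype, the modifier arrays were at 0.005, -0.24, -0.60 and -0.35, with 3 of 4 arrays below 0. The fitted ratio of -0.30 ± 0.15 (SE, n = 4) had a 95% interval from -0.64 to 0.04, or 0.643-fold to 1.03-fold, and a limma adjusted p of 0.811. The arrays of modifier over Wobbler gave -0.18, 0, -0.30 and 0.15, or -0.08 ± 0.15 (SE, n = 4) in the fit. Over its other settings the adjusted p of Mdh1 in modifier over wildtype reached down to 0.111, with array weights.

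Part of a list of 16 late spermatid markers was lower in the comparisons with the modifier. The lists were chosen with earlier results of these data known, so their counts are not independent of these data. In modifier over wildtype 9 of 15 measured markers were lower and 0 higher, with a median of -1.02, where 0.699% of features were lower and 0.0339% higher. Without replicate 1, 2, 3 or 4 of that comparison 2, 3, 2 and 7 of the 15 were lower. Against Wobbler 5 of the 15 were lower and 0 higher, with a median of -0.68, where 0.299% of features were lower and 0.115% higher. Of these 5 calls 0 remained without replicate 1 or without replicate 2 of that comparison, and 3 markers passed without its replicate 3 or 4, without any 1 array of modifier over wildtype, or without replicate 4 of Wobbler over wildtype. In Wobbler over wildtype 0 of 15 passed and the median was -0.11. Of 8 measured Leydig cell markers, 2 were lower in modifier over wildtype and 1 in the comparison with Wobbler, the latter not without replicate 1 or 2 of that comparison. Without any 1 array of modifier over wildtype 1 of the 8 passed there. Of 3 spermatocyte markers Syce2 was lower in modifier over wildtype (-0.94), and of 7 macrophage markers Tyrobp was (-0.68). Positive ratios there were found for 1 of the 3 and 2 of the 7, beside 52.5% of all features. The medians of these lists were -0.52 and -0.22. Syce2 no longer passed without replicate 1, 2 or 3 of that comparison, and Tyrobp without any 1 of its 4 arrays. No marker of Sertoli cells, spermatogonia, peritubular cells and vessels, epididymis or blood passed (limma). At an unadjusted p under 0.05, 2, 3 and 1 of 8 Sertoli markers passed in Wobbler over wildtype, modifier over wildtype and modifier over Wobbler, and for Wobbler over wildtype 1 of 4 spermatogonia and 1 of 6 peritubular markers did. Of all features 15.7%, 7.33% and 11.5% had such a p in the 3 comparisons. Among the 6 neighbours of Vps54, Mdh1 had the lowest ratio in both modifier comparisons, at -0.30 and -0.08. None of the 6 was as low as the median of the spermatid markers, but the share of all features that low was not counted. So this does not set the neighbours apart from other features. The part of cell composition in the ratios of the neighbours was not tested.

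Xpo1 was the most precisely measured of the 6, with a residual SD of 0.166 that only 4.56% of features undercut. Its log2 ratios were 0.23, 0.24, -0.14 and -0.05 in Wobbler over wildtype, 0.36, 0.26, -0.06 and 0.007 in modifier over wildtype, and 0.78, 0.19, -0.07 and 0.18 in modifier over Wobbler. In each comparison the arrays with the first-named genotype in Cy5 were higher on average. The fitted ratios were 0.07 ± 0.11 (SE, n = 4), 0.14 ± 0.11 (SE, n = 4) and 0.27 ± 0.11 (SE, n = 4). In modifier over Wobbler the 95% interval ran from 0.02 to 0.52, the unadjusted p was 0.0367 and the limma adjusted p 0.397. Without replicate 1 of that comparison the ratio was 0.15. In Wobbler over wildtype the interval ran from 0.882-fold to 1.25-fold.

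Array medians, after the turn, were above 0 on every array with the first-named genotype in Cy5 (0.03 to 0.18) and below 0 on every exchanged array (-0.22 to -0.04). The dye term of the fit takes up this offset. It was positive for all 6 genes, from 0.11 for Ehbp1 to 0.50 for Aftph, beside a median of 0.15 over all features, and for 0 of the 6 did it pass the threshold, as for all but 1 of the 14729 features. After subtraction of the array medians Xpo1 was above 0 on 12 of 12 arrays, by 0.007 to 0.62, a pattern noticed after its values were seen. Of 12635 features measured on all arrays 0.57% did the same. Mdh1 was below its array's median on 8 of 12 arrays.

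The 3 comparisons form a loop, so modifier over wildtype should equal the sum of the other ratios where every pool of a genotype held the same RNA. None of the 6 genes departed from this at the threshold, where 0.0272% of features did (limma contrast). A positive gap was found for 1 of 6, beside 42.9% of features, and 0 of 6 had an unadjusted p under 0.05, beside 6.95% of features. Aftph missed closure by -1.77 ± 0.96 (SE), and by -0.71 without replicate 2 of Wobbler over wildtype. For Ugp2, Commd1, Mdh1 and Xpo1 the gaps were -0.46, -0.37, -0.36 and -0.20, and for Ehbp1 0.06. The median gap of the 6 genes was -0.37, beside -0.09 for all features.

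Profiles most like the 2 genes with the smallest p were sought over 8044 other named features measured on all 12 arrays. By the root mean square difference of log2 ratios, Xpo1 was nearest to Mrtfb (0.14), Tmem165 (0.15) and Inpp5k (0.15), where the median feature was at 0.50. Aftph was nearest to Tepp (0.23), Cct3 (0.25) and Hes3 (0.28), with a median of 1.39. A root mean square weighs large values most, and Aftph was at 4.57 on replicate 2 of Wobbler over wildtype. So nearness to Aftph mostly reflects a high value on that array, the widest of the series. By this choice the fitted ratios of Tepp, Cct3 and Hes3 resemble those of Aftph, at 1.15, 1.16 and 1.36 in Wobbler over wildtype.

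The neighbourhood was widened to the 25 protein-coding genes on each side of Vps54, by their order in the gene table of GRCm38.p6. Of these 50 genes, 25 had a probe and 24 were tested. In each comparison 0 of 24 passed (limma), and 2, 1 and 4 had an unadjusted p under 0.05 in Wobbler over wildtype, modifier over wildtype and modifier over Wobbler. Of all features 0.306%, 0.733% and 0.414% passed and 15.7%, 7.33% and 11.5% had such an unadjusted p. The median ratios were 0.07, -0.00094 and 0.15 for the 24 genes, beside -0.007, 0.01 and 0.08 for all features. The smallest p was that of 1700093K21Rik, at 0.00184 (limma adjusted p 0.139) in modifier over Wobbler.

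**Figure D4:**
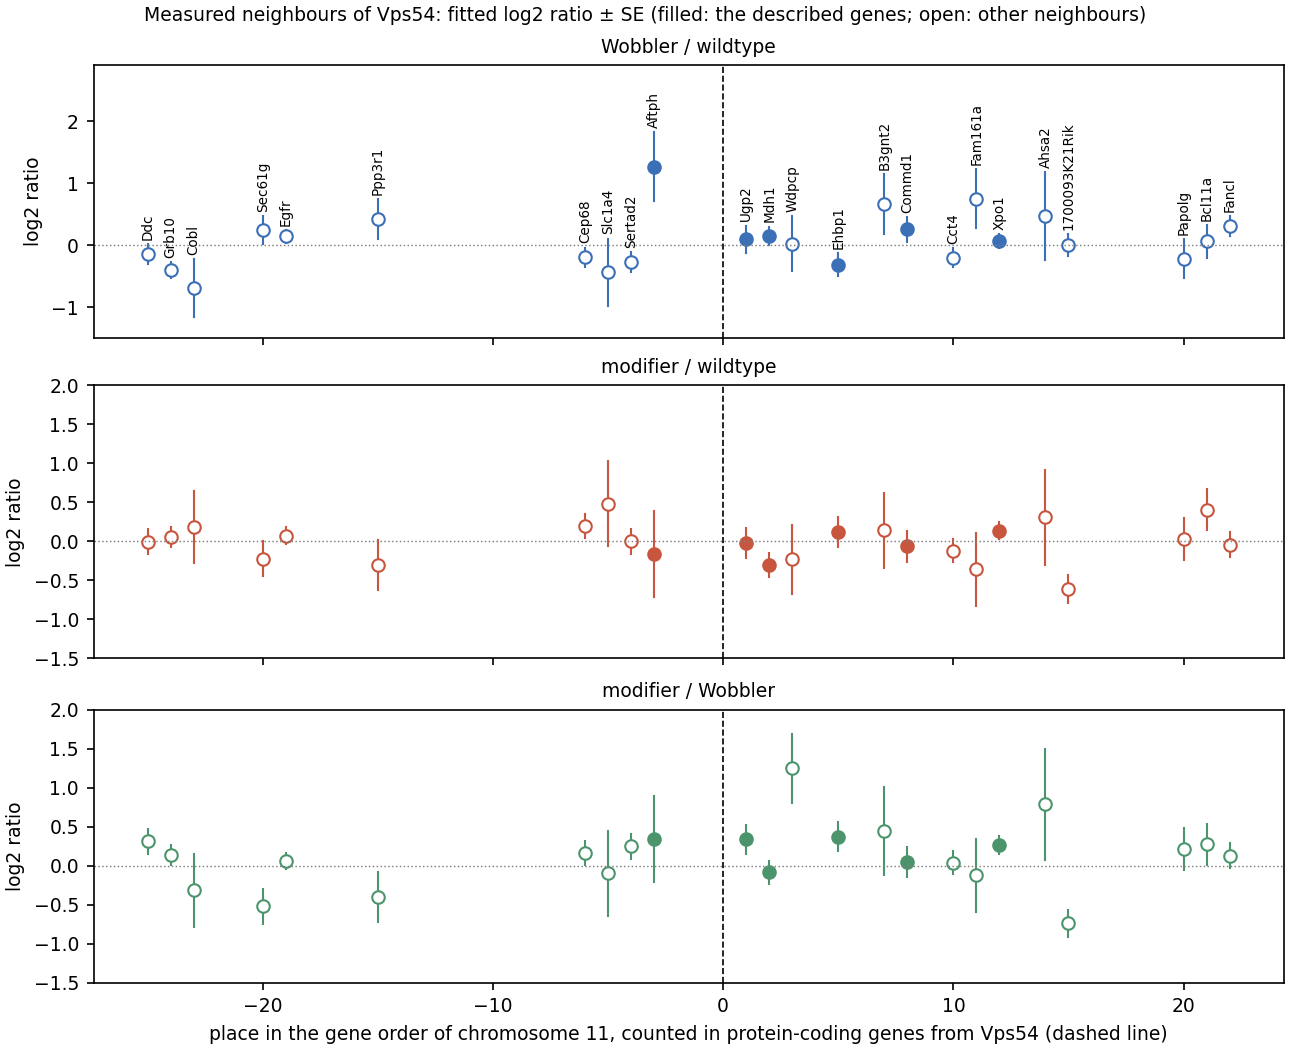
Fitted log2 ratio ± SE of the 24 tested neighbours by their place in the gene order around Vps54, in the 3 comparisons; filled dots are the genes described above and open dots other neighbours. The ratios scatter around 0 on both sides, the highest being Aftph at 1.26 in Wobbler over wildtype and Wdpcp at 1.25 in modifier over Wobbler.

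1700093K21Rik, an uncharacterised gene, was at -0.18, -0.10, -1.14 and -1.53 on the arrays of modifier over Wobbler and at -0.35, -0.37, -1.22 and -0.49 in modifier over wildtype. All 8 values were below 0, and the fitted ratios were -0.74 ± 0.18 (SE, n = 4) and -0.61 ± 0.18 (SE, n = 4). The limma adjusted p in modifier over wildtype was 0.242. Of all features 17.8% and 19.2% had the same sign on every array measured in these comparisons. In modifier over Wobbler the lowest values were those of replicates 3 and 4, with the dyes exchanged. In Wobbler over wildtype 1700093K21Rik was at 0.00575 ± 0.18 (SE, n = 4). Wdpcp, whose start region overlaps that of Mdh1, was at 0.68, 3.30, 0.98 and 0.06 in modifier over Wobbler, with a fitted ratio of 1.25 ± 0.44 (SE, n = 4; limma adjusted p 0.320), while Mdh1 was at -0.08. As with Ehbp1, replicate 2 held the high value. The loop gap of Wdpcp was -1.51 ± 0.76 (SE, limma adjusted p 0.710). Grb10, an adaptor of insulin signalling, had the smallest p in Wobbler over wildtype, with a ratio of -0.40 ± 0.13 (SE, n = 4; limma adjusted p 0.208). Cct4, a chaperonin subunit encoded between Commd1 and Xpo1, was at -0.20, -0.12 and 0.04 in the 3 comparisons.

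Partners of these proteins encoded elsewhere in the genome were read from lists of known complexes and pathways, each of which also holds its neighbour of Vps54 where that is a member of the pathway. The counts of every list stand beside the same shares of all features. In Wobbler over wildtype, modifier over wildtype and modifier over Wobbler 0.306%, 0.733% and 0.414% of features passed. An unadjusted p under 0.05 was found for 15.7%, 7.33% and 11.5% of features. Of 11 tethers and SNAREs that work with Vps54, 6 were tested and 0 passed in any comparison. Vps52 and Vps53, subunits of the same complex, were at -0.20 ± 0.12 and 0.23 ± 0.13 (SE, n = 4) in Wobbler over wildtype, and Stx16, a SNARE that receives these vesicles, was at 1.43 ± 0.61 (SE, n = 4; limma adjusted p 0.298), the only one of the 6 with an unadjusted p under 0.05. The loop gap of Stx16 was -1.65 ± 1.05 (SE, limma adjusted p 0.732). The list's medians were 0.17, 0.01 and 0.06 for Wobbler against wildtype and for the modifier against wildtype and Wobbler.

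All 8 genes of the malate-aspartate shuttle were tested and 0 passed (limma), with 1, 0 and 1 at an unadjusted p under 0.05 in Wobbler over wildtype, modifier over wildtype and modifier over Wobbler. Of all features 15.7%, 7.33% and 11.5% had such a p. In modifier over wildtype 1 of the 8 had a positive ratio, beside 52.5% of all features. The median of the 8 was -0.15, beside 0.01 for all features, with Mdh1 the lowest at -0.30 and Mdh1b, a paralog, at -0.25 ± 0.15 (SE, n = 4). Slc25a12, the aspartate-glutamate carrier, was at 0.48 ± 0.17 (SE, n = 4) in Wobbler over wildtype and at -0.42 ± 0.17 (SE, n = 4) in modifier over Wobbler. Of the 14 genes of UDP-glucose and glycogen metabolism 10 were tested and 0 passed (limma), with 4, 1 and 1 at an unadjusted p under 0.05 in the same order. Pgm2, a phosphoglucomutase, was at -0.76 ± 0.25 (SE, n = 4) in modifier over wildtype, and Galt, of galactose use, at -0.61 ± 0.18 (SE, n = 4) in Wobbler over wildtype.

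Of 27 genes of nuclear export and import 22 were tested and 0 passed (limma). In the same order of comparisons, 3, 2 and 5 had an unadjusted p under 0.05, beside 15.7%, 7.33% and 11.5% of all features. In modifier over Wobbler the median of the 22 was 0.18, beside 0.08 for all features. There 17 of 22 were positive, beside 61.6% of all features. Kpnb1, the importin beta that carries cargo inward, was at 0.60 ± 0.11 (SE, n = 4; limma adjusted p 0.0609) in that comparison. Its gap in the loop was -0.75 ± 0.20 (SE; limma adjusted p 0.510). Kpna2, an importin alpha, was at -0.56 ± 0.12 (SE, n = 4; limma adjusted p 0.0972) in modifier over wildtype. Its loop gap was -0.55 ± 0.21 (SE; limma adjusted p 0.669). In the list of Golgi and endocytic traffic around Rab1a, Aftph and Ehbp1, 25 of 31 genes were tested and 0 passed (limma), with 4, 1 and 4 at an unadjusted p under 0.05. Trappc4, a subunit of the activator of Rab1, was at 1.05 ± 0.19 (SE, n = 4; limma adjusted p 0.0612) in Wobbler over wildtype. Its loop gap was -1.17 ± 0.32 (SE; limma adjusted p 0.559). Cltc, the clathrin heavy chain, was at 0.31, 0.16 and 0.46 ± 0.13 (SE, n = 4) in the 3 comparisons, with a loop gap of -0.61 ± 0.22 (SE; limma adjusted p 0.656).

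Of the COMMD list 10 of 15 genes were tested and 0 passed (limma), with 2, 1 and 1 at an unadjusted p under 0.05. Such a p was found for 15.7%, 7.33% and 11.5% of all features in Wobbler over wildtype, modifier over wildtype and modifier over Wobbler. Ccdc93, a partner of COMMD proteins, was at 1.57 ± 0.69 (SE, n = 4) in Wobbler over wildtype and at -1.77 ± 0.69 (SE, n = 4) in modifier over Wobbler, with limma adjusted p of 0.309 and 0.367. Partners of the genes without a probe were measured in part. For Actr2, 10 of 16 genes of the Arp2/3 complex and its activators were tested and 0 passed (limma), with 3, 0 and 0 at an unadjusted p under 0.05. Actr3, the other actin-related subunit, was at 0.89 ± 0.32 (SE, n = 4) in Wobbler over wildtype. For Spred2, 5 of 17 genes of its pathway were tested, and for Peli1, 6 of 11. In both lists 0 passed (limma), with 1, 0 and 1 at an unadjusted p under 0.05 for Spred2 and 2, 1 and 1 for Peli1. Myd88, the adaptor of interleukin 1 receptors, was at -1.59 ± 0.29 (SE, n = 4; limma adjusted p 0.0621) in Wobbler over wildtype. Its loop gap was 1.11 ± 0.50 (SE; limma adjusted p 0.710).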

How the data were processed

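Each sample is 1 array. The authors deposited 1 log2 ratio per spot; how they were scanned, corrected and normalized is "not given in the sources used here". Log base, an additive shift per array and a repeated code for unusable spots (22 to 165 per array, treated as missing) were read from the values. Each array held 18325 to 19584 usable spots, and the number of arrays limits the precision. Ratios of replicates 3 and 4 were multiplied by -1. Probe names come from the platform annotation, where 14030 probes had 1 gene symbol, 5 several and 6320 none. Probes of 1 symbol were averaged, and features measured on 3 or more of each comparison's 4 arrays were fitted (limma 3.58.1, R 4.3.3) with a mean for each comparison and a term for dye. Samples with the same replicate number did not deviate together. Named genes were all members with a probe, up to 3 list members with the smallest p per comparison (not all are printed), neighbours with the largest ratios, and nearest profiles; Cct4 and Wdpcp were named for their position. Alternatives changed centring, scaling, the dye term, filters, the model, weights and arrays. Simulated data were used to test the fit. Members and lists were chosen with earlier results of these data known.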

Additional observations from a re-analysis of the deposited data

Results flagged for a closer look

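Of 26 groups of 4 arrays examined (6 genes and the 3 probes of Ehbp1 in each comparison, where all 4 arrays had a value), 2 held 1 array far from the others; chance gives about 1 in 20. Aftph was at 4.57 on replicate 2 of Wobbler over wildtype, and the nearest other array was at 0.51. Ugp2 was at 0.578 on replicate 4 of modifier over Wobbler, and the nearest other array was at 0.273.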

How the results depend on the processing

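None of the 6 genes passed the threshold in any of the 22 other settings; the smallest adjusted p in them was 0.111. Another setting left out values that lay, once the array's shift was removed, at ratios of whole numbers up to 5. For Commd1 these were -0.52 and 0.11 on replicates 3 and 4 of modifier over Wobbler. For Ugp2 it was the 0.475 on replicate 2 of Wobbler over wildtype. Commd1 and Ugp2 then had too few arrays for a value, as had Ugp2 with values required on all 12 arrays. Of 504 values of the genes under other settings 474 kept their sign and 30 did not. With a loop model of 2 genotype coefficients the sign turned for Aftph against wildtype and against Wobbler with the modifier (0.43 and -0.24), for Ugp2 in Wobbler over wildtype (-0.0922) and modifier over wildtype (0.11), and for Commd1 in the modifier comparisons with wildtype and Wobbler (0.0609 and -0.0732). With no array turned it did so for Aftph (0.10), Ugp2 (0.40), Mdh1 (0.18) and Commd1 (0.15) in modifier over wildtype, Ugp2 in modifier over Wobbler (-0.0715), Ehbp1 in Wobbler over wildtype (0.0738), and the loop gaps of Ugp2 (0.13) and Ehbp1 (-0.23). Commd1 in modifier over Wobbler was at -0.0065 with centred arrays, -0.0224 with scaled arrays and -0.0005 with array weights, and Ugp2 in modifier over wildtype at 0.0036 with array weights. Leaving out 1 array gave ranges across 0 for Aftph in modifier over wildtype (-0.33 to 0.017), Ugp2 in Wobbler over wildtype (-0.0365 to 0.18) and modifier over wildtype (-0.26 to 0.11), Mdh1 in modifier over Wobbler (-0.24 to 0.0242), Commd1 in Wobbler over wildtype (-0.0191 to 0.44) and modifier over Wobbler (-0.0709 to 0.16), and the loop gap of Ehbp1 (-0.14 to 0.34). The cause was not tested.

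Over all features, the counts that passed for Wobbler against wildtype and for the modifier against wildtype and Wobbler were 45, 108 and 61, and 4 in the loop contrast. They were 23, 483 and 73 with arrays scaled (0 in the contrast); of 483, 71 were higher. With no dye term they were 24, 46 and 7, with each comparison fitted alone 0, 0 and 0 (2310, 1080 and 1694 at an unadjusted p under 0.05 in the fit of all arrays), and with array weights 22, 709 and 59. The loop model gave 0, 224 and 207, and values with no array turned 0, 0 and 0, with 0 in the contrast. Probes on their own gave 87, 165 and 110, and arrays centred on medians 89 in modifier over Wobbler. The replicate block, as a paired analysis by replicate number, gave 22, 58 and 21 and 1 in the contrast, but the samples share only a number. Leaving out 1 array gave 18 to 54, 20 to 154, 0 to 128, and 2 to 4 in the contrast; the lowest were 20 without replicate 1 or 3 of modifier over wildtype and 0 without replicate 2 of modifier over Wobbler. No intensities were used here, so dim spots could not be told from bright ones.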
